A study of Mus musculus with 6 samples.

Results

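The nuclear position of the genes for the proteins of the cytosolic ribosome was described in Hi-C data from mouse muscle cells. The set was chosen by symbol from the autosomal protein-coding genes of the GENCODE annotation and comprised Rpl or Rps with a number and a short letter suffix, together with Rpsa, Rplp0, Rplp1 and Rplp2. Pseudogenes and the kinases named Rps6k were left out. The rule found 77 of 20807 autosomal protein-coding genes, of which 30 encode proteins of the small subunit, 44 proteins of the large subunit and 3 the acidic stalk. The rule used no measured value, although the set was chosen with earlier results of these data known. The genes were placed by their transcription start site (TSS) and lay in 72 of the 4930 autosomal bins of 500 kb, so 5 bins held 2 members each and those members have the same values.

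The cells were C2C12, an immortalised mouse myoblast line whose myoblasts withdraw from the cell cycle and fuse into multinucleated myotubes when serum is reduced. In all conditions the cells first proliferated for 72 h. The conditions were myoblasts harvested then, myotubes on day 3 of differentiation and myotubes on day 7. The day 3 myotubes had received no AraC and still contained myoblasts. The day 7 myotubes had been given 10 µg per ml AraC (cytosine arabinoside, which kills dividing cells) from day 3. There was no genetic difference between the groups, and no animals were used. Each condition had 2 biological replicates, but the authors pooled them into 1 matrix, so each condition contributed a single value per pair of bins and no test between conditions could be made. The AraC-treated myotubes differ from the day 3 myotubes in both day and drug, and these cannot be told apart. The matrices hold no expression values, so the identity of the cells could not be checked by marker genes. In bulk cells, a different mixture of cells and a different state within each cell also cannot be told apart.

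Ribosomal proteins are made in equal amounts and assemble with ribosomal RNA in the nucleolus into the small subunit, which decodes the messenger RNA, and the large subunit, which joins amino acids. Their genes are among the most strongly transcribed in growing cells and are scattered over almost all chromosomes, each surrounded by unrelated genes. Interphase chromatin separates into an A compartment, which is gene-rich and mostly transcribed, and a B compartment, which is gene-poor and mostly silent, and Hi-C shows this as a plaid pattern of contacts. Proliferating myoblasts produce ribosomes at a high rate, and this slows when the cells leave the cell cycle.

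Mammalian ribosomal protein genes typically start within an uninterrupted run of C and T, which becomes the terminal oligopyrimidine tract of the messenger RNA and places its translation under the control of mTOR. The rule did not use this feature. The windows below show the 30 bases before and the 20 bases from the RefSeq transcription start, 5′ to 3′ on the strand of the gene in GRCm38.p6 (the same sequence as mm10), for 4 genes in the A compartment in all conditions, 4 genes in the B compartment in all conditions and Rps12, which changed compartment. All were picked from members that have a run of C and T, which capitals mark.

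Rpl7a: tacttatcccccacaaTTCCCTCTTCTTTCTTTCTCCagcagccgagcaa
Rpl27a: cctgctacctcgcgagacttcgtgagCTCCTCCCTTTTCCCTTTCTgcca
Rpl13a: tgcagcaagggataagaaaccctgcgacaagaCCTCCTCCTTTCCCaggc
Rpl14: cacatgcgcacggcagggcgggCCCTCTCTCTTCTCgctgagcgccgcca
Rpl38: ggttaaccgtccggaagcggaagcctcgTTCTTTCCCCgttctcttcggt
Rps6: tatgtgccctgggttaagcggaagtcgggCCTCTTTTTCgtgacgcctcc
Rpl15: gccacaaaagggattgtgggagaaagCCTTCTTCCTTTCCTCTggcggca
Rpl35: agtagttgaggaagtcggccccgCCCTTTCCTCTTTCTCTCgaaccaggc
Rps12: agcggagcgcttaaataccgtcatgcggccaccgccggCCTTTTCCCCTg

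The first 4 windows belong to members in A and lie at chr2:26910777-26910826 (plus strand), chr7:109519165-109519214 (plus), chr7:45128726-45128775 (minus) and chr9:120571487-120571536 (plus). Those of Rpl38, Rps6, Rpl15 and Rpl35 belong to members in B and lie at chr11:114668550-114668599 (plus), chr4:86857348-86857397 (minus), chr14:18270967-18271016 (minus) and chr2:39005112-39005161 (minus), and that of Rps12 at chr10:23787190-23787239 (minus). The run was 21 bases long in Rpl7a, 20 in Rpl27a and 14 in Rpl13a and Rpl14. It was 10 bases long in Rpl38 and Rps6, 17 in Rpl15 and 18 in Rpl35, so long runs occurred on both sides among these picked windows. A start was listed in the RefSeq promoter table for 57 of the 77 members. An uninterrupted run of at least 8 C or T on the gene's strand that overlapped the 21 bases centred on the start was found in 25 of these 57 (43.9%), against 2143 of 15669 protein-coding genes with a listed start (13.7%). Such a run could end before the start, as in Rpl13, or begin after it, as in Rps12. The listed start lay within 100 bases of the GENCODE start in 43 of the 57, and a run beside another start would be missed. The share was 18 of 42 (42.9%) for members in A in all conditions and 5 of 9 (55.6%) for members in B in all conditions. Members with and without the run thus occurred in both compartments. The letters TATAAA were found on either strand of the 300 bases around the start (250 before, 50 after) in 3 of 57 members (5.26%) and in 12.9% of all genes, and the letters AAGATGG, part of the site of the factor YY1, in 8 members (14.0%) and in 6.42% of all genes. The median GC content of the 300 bases was 58.3% in members and 57.3% in all genes. A match is only a description of these letters.

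The value used for each bin was the first principal component (PC1) of the deposited correlation coefficients within its chromosome, with the sign turned so that high values go with many TSSs. A bin with PC1 above 0 was assigned to A and a bin below 0 to B. PC1 was also divided by its standard deviation over the bins of the same chromosome and condition, and this quantity is called scaled PC1 below. It was needed because PC1 itself had a larger spread in myotubes (SD 1.61 over autosomal bins) and AraC-treated myotubes (1.36) than in myoblasts (0.859). All 77 members lay in bins with data in all 3 conditions.

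Ribosomal protein genes were mostly in the A compartment in every condition. In myoblasts 62 of 77 were in A (80.5%, exact 95% interval 69.9 to 88.7), beside 60.1% of all autosomal protein-coding genes with a value. In myotubes 60 were in A (77.9%, 67.0 to 86.6), beside 58.2% of all genes. In AraC-treated myotubes 59 were in A (76.6%, 65.6 to 85.5), beside 57.2% of all genes. The intervals cover counting error only and treat genes as independent, although some members share a bin. The members' shares were thus between 19.4 and 20.4 percentage points above those of all genes. The median scaled PC1 of the members was 0.977 in myoblasts, 1.42 in myotubes and 1.25 in the AraC-treated myotubes, and that of all genes was 0.395, 0.375 and 0.407. Ranked over all autosomal bins, the median member stood at percentile 81.9, 86.4 and 83.8, and the median gene at 71.7, 71.4 and 71.7. Among the members, 36 stood above percentile 90 in myoblasts (46.8%, beside 23.7% of all genes), 30 in myotubes (39.0%, beside 22.5%) and 28 in the AraC-treated myotubes (36.4%, beside 21.6%).

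The genes at the upper end belonged to both subunits. Rpl13, a large subunit gene on chromosome 8 (chr8:123102350-123105244), had scaled PC1 of 2.83 in myoblasts, 2.46 in myotubes and 2.43 in the AraC-treated myotubes. Rps15, a small subunit gene on chromosome 10 (chr10:80292453-80294114), had 2.80, 2.55 and 2.32. Rpl12, a large subunit protein near the base of the stalk (chr2:32961559-32965345), had 2.68, 2.48 and 2.40. All 3 were far inside A and had their highest value in myoblasts. Rpl11 had 2.67, 2.41 and 2.40. Its protein forms a particle with Rpl5 and the 5S ribosomal RNA, and the free particle binds Mdm2, the ligase that degrades p53. Rpl5, the partner, was also in A but much closer to the boundary, at 0.521, 0.517 and 0.585.

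**Figure D1:**
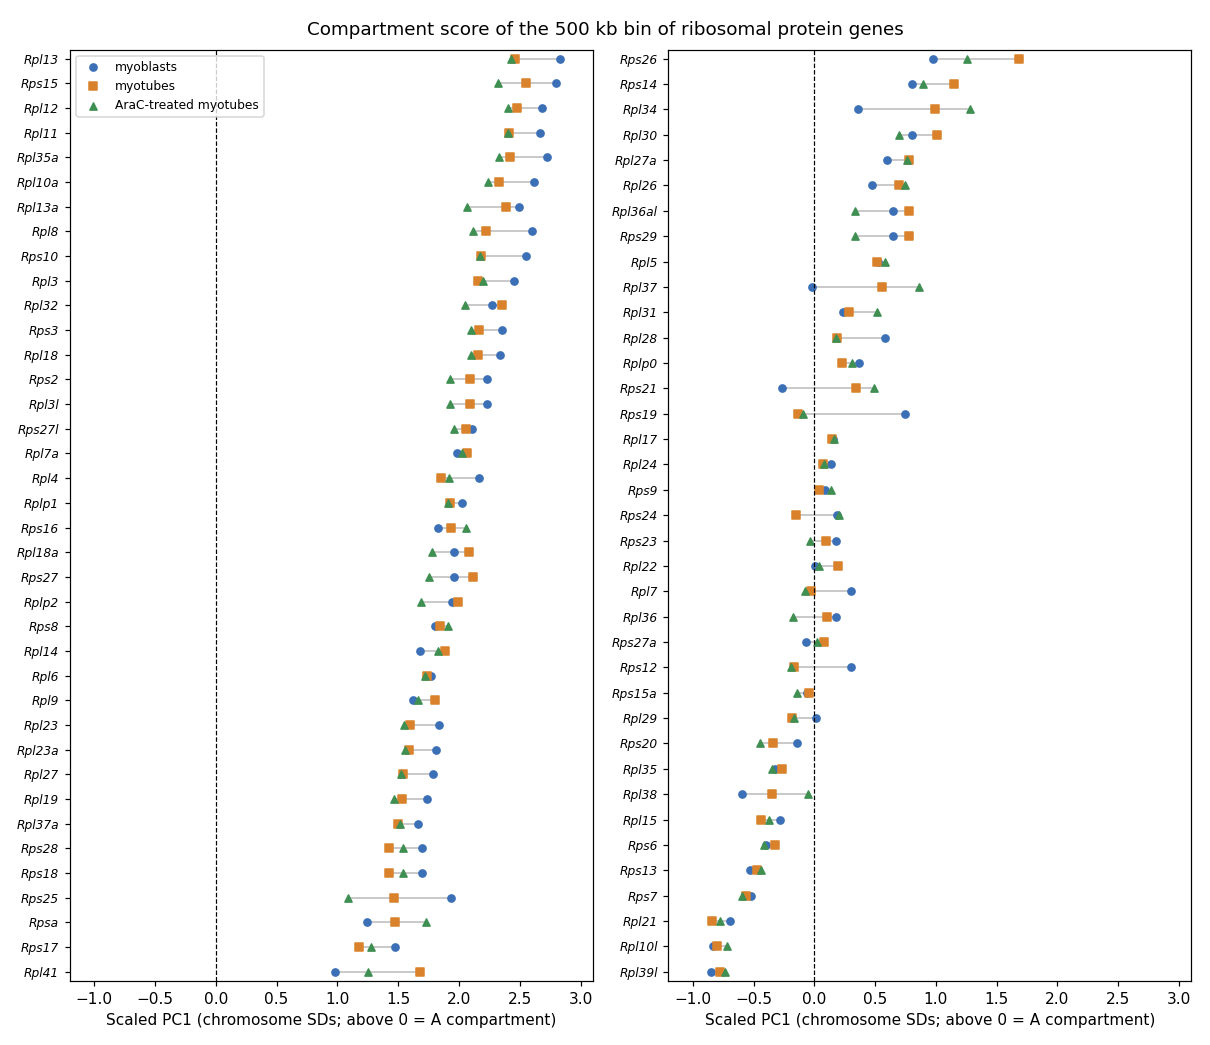
Scaled PC1 (horizontal axis, in standard deviations of the chromosome) of the bin of each of 75 ribosomal protein genes in myoblasts (circles), myotubes (squares) and AraC-treated myotubes (triangles), ordered by the mean of the 3 values, with a grey line over their range. Rpl13 to Rpl41 fill the left panel and all lie right of 0, while the right panel holds genes, among them Rpl39l, Rpl10l and Rpl21, whose 3 values all lie left of 0.

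Over the 3 conditions 55 members (71.4%) were always in A and 12 (15.6%) always in B, beside 53.4% and 35.8% of all genes. The other 10 differed between conditions. The genes always in B came from both subunits. They included Rps6, Rps7, Rps13, Rps15a and Rps20 of the small subunit, and Rpl10l, Rpl15, Rpl21, Rpl35, Rpl38 and Rpl39l of the large subunit. Rpl39l (chr16:10170226-10174911) and Rpl10l (chr12:66283379-66284401) had the lowest means, with scaled PC1 of -0.850, -0.772 and -0.733 for Rpl39l and -0.830, -0.804 and -0.716 for Rpl10l. Both encode variants known mainly from the testis. Rpl21 (chr5:146832890-146837032), which encodes a constitutive protein, was nearly as low at -0.695, -0.844 and -0.772. These 3 genes were far from 0 in all conditions.

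Rps7 had scaled PC1 of -0.520, -0.565 and -0.591, and Rps13 had -0.532, -0.473 and -0.443. Rps6 (chr4:86854660-86857412), the substrate of the S6 kinases, had -0.398 in myoblasts, -0.323 in myotubes and -0.411 in the AraC-treated myotubes. Rpl15 had -0.279, -0.442 and -0.370, and Rpl35 had -0.325, -0.263 and -0.350. For these genes the 3 conditions lay close together and stayed below 0. Rps20 was nearer to 0 in myoblasts (-0.145) than in myotubes (-0.342) and AraC-treated myotubes (-0.443). Rps15a was near 0 throughout, at -0.0637, -0.0465 and -0.145. Among the 12 genes, 9 had B bins on both sides in all conditions, and Rpl35, Rpl38 and Rpl39l had a bin on one side that was always in A. Of the 55 genes always in A, 37 had bins always in A on both sides. Neighbouring bins were not counted in this way for all genes, so no comparison is made.

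The compartment can also be read from the deposited coefficients directly. Bins that were always in A or always in B served as the references, and bins within 2 Mb of the gene were left out. The bin of Rpl13 had mean coefficients with the A bins of its own chromosome of 0.110, 0.217 and 0.168 in myoblasts, myotubes and AraC-treated myotubes, and with the B bins of -0.0785, -0.156 and -0.124. The bin of Rpl21 was the reverse, with -0.0373, -0.0901 and -0.0697 for A bins and 0.0405, 0.105 and 0.0736 for B bins. On other chromosomes the mean with A bins minus the mean with B bins was 0.207, 0.375 and 0.294 for Rpl13 and -0.0750, -0.160 and -0.118 for Rpl21. The reference bins were called by PC1 from the same matrices, so these means are another reading of the same data and no independent check. Rps6 had differences of -0.0353, -0.0855 and -0.0747 on other chromosomes. This reading did not always match PC1 for bins near 0. Rps9, always in A by PC1 (scaled 0.0851, 0.0423 and 0.139), had differences of -0.0182, -0.0414 and -0.0344 on other chromosomes. Rpl28, also always in A, had -0.0158 in myotubes and -0.0244 in AraC-treated myotubes. Rpl22, likewise in A, had -0.00777 in myoblasts and -0.00296 in AraC-treated myotubes.

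By subunit, 22 of 30 small subunit genes (73.3%), 37 of 44 large subunit genes (84.1%) and all 3 stalk genes were in A in myoblasts. In myotubes the counts were 21, 36 and 3, and in AraC-treated myotubes 21, 35 and 3. The exact intervals in myoblasts, 54.1 to 87.7 for the small and 69.9 to 93.4 for the large subunit, overlapped widely. The stalk genes, whose acidic proteins recruit the GTPases of translation, stood apart from each other. Rplp1 had scaled PC1 of 2.02, 1.93 and 1.91 and Rplp2 had 1.94, 1.99 and 1.69, while Rplp0, the scaffold that binds both, had 0.371, 0.227 and 0.311. Rpsa, the small subunit protein also known as the laminin receptor, had 1.24, 1.47 and 1.73. It was highest in AraC-treated myotubes.

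The variants whose symbols end in l were compared with their parent genes where those are autosomal. Rpl3l (chr17:24727820-24736143), which encodes the form of Rpl3 used in skeletal muscle and heart, had scaled PC1 of 2.23 in myoblasts, 2.09 in myotubes and 1.92 in the AraC-treated myotubes. It was thus far inside A before as well as after differentiation. Its TSS lay 9.70 kb from that of Rps2, in the same bin, so the values describe both genes. The parent Rpl3, on chromosome 15, had 2.45, 2.16 and 2.19. Rps27l, a p53 target gene, had 2.10, 2.05 and 1.96, and its parent Rps27 had 1.96, 2.11 and 1.75. Rpl36al shared a bin with Rps29 and had 0.645, 0.779 and 0.333. The parents of Rpl10l, Rpl36al and Rpl39l are on the X chromosome, which was not analysed here. Without the l variants, 59 of 72 members (81.9%) were in A in myoblasts, 57 (79.2%) in myotubes and 56 (77.8%) in the AraC-treated myotubes.

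Diamond-Blackfan anaemia is an inherited failure of red cell production that results from loss of a copy of a ribosomal protein gene, and 19 members are on the list of such genes used here. Of these, 15 were in A in myoblasts (78.9%), 13 in myotubes (68.4%) and 14 in the AraC-treated myotubes (73.7%). The exact intervals were 54.4 to 93.9, 43.4 to 87.4 and 48.8 to 90.9. They contained the shares of all genes in each condition (60.1%, 58.2% and 57.2%). Their median scaled PC1 was 0.745, 0.779 and 0.745. The genes of the list ranged from Rps7, in B, to Rpl11, at the upper end of A. Rps19, the gene most often affected in the disease, was among those that changed compartment.

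PC1 had both signs over the conditions in 10 members. In the comparison of myoblasts with myotubes 8 members changed compartment (10.4%), beside 7.4% of all genes, with 5 leaving A and 3 entering it. In the comparison of myoblasts with AraC-treated myotubes 9 changed (11.7%), beside 9.61% of all genes, with 6 leaving A and 3 entering it. Between myotubes and AraC-treated myotubes 3 changed (3.90%), beside 4.58% of all genes. The counts among members were near the background in each comparison. When only bins were counted whose absolute PC1 was above the 20th percentile of the chromosome in both conditions, 53, 51 and 54 members were left and 0 of them changed, beside 0.324%, 0.908% and 0.0320% of all autosomal protein-coding genes left by the same filter. Each comparison shares a condition with the others.

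Rps19 (chr7:24884371-24889806) had the largest difference in size between myoblasts and myotubes. Its scaled PC1 was 0.745 in myoblasts, -0.132 in myotubes and -0.0960 in the AraC-treated myotubes, a difference of -0.877. The bin of Rps19 held 22 TSSs and lay between a bin always in B and a bin always in A. Its mean coefficient with the A bins of chromosome 7 was 0.0348 in myoblasts, -0.0131 in myotubes and -0.0102 in the AraC-treated myotubes, and with the B bins -0.00654, 0.0518 and 0.0396. On other chromosomes the A mean minus the B mean was 0.0424, -0.0602 and -0.0367. The sign of these coefficients therefore differed between myoblasts and both kinds of myotubes, within chromosome 7 and outside it.

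Rps12 (chr10:23785183-23787275), a small subunit protein, had scaled PC1 of 0.299, -0.167 and -0.190. On other chromosomes its A mean minus B mean was 0.0178, -0.0611 and -0.0518. The bin after it went from A to B in the same way, while the bin before it was always in A. Rpl7 (0.305, -0.0241 and -0.0729) and Rpl29 (0.0122, -0.187 and -0.168), both of the large subunit, were also in A in myoblasts and in B in both kinds of myotubes. In myoblasts Rps12 and Rps19 were further from 0 than Rpl29, which was at the boundary.

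Rps21 (chr2:180257377-180258445), Rps27a and Rpl37 (chr15:5116645-5119140) were in B in myoblasts and in A afterwards. Rps21 had scaled PC1 of -0.265, 0.344 and 0.495. Rpl37 had -0.0154, 0.558 and 0.864, so it was at the boundary in myoblasts and well inside A in AraC-treated myotubes. Rps27a, whose protein is made as a fusion with ubiquitin, had -0.0660, 0.0836 and 0.0226 and remained near 0. On other chromosomes the A mean minus the B mean of Rpl37 was 0.0121, 0.0992 and 0.140, so in myoblasts its sign differed from that of PC1, and that of Rps21 was -0.00220, 0.0633 and 0.0711.

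The remaining 3 genes differed in other ways. Rps23, a protein of the decoding centre and the only member on chromosome 13, had scaled PC1 of 0.179, 0.0987 and -0.0349. Rpl36 had 0.179, 0.108 and -0.178, and both were in B only in AraC-treated myotubes. Rps24 had 0.190, -0.148 and 0.207 and was in B only in day 3 myotubes. Of the 10 genes, 5 lay between a bin always in A and a bin always in B, 1 lay between 2 bins always in A, and none lay between 2 bins always in B. These positions were not counted for all genes that changed compartment, so they are not read as particular to the members.

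**Figure D2:**
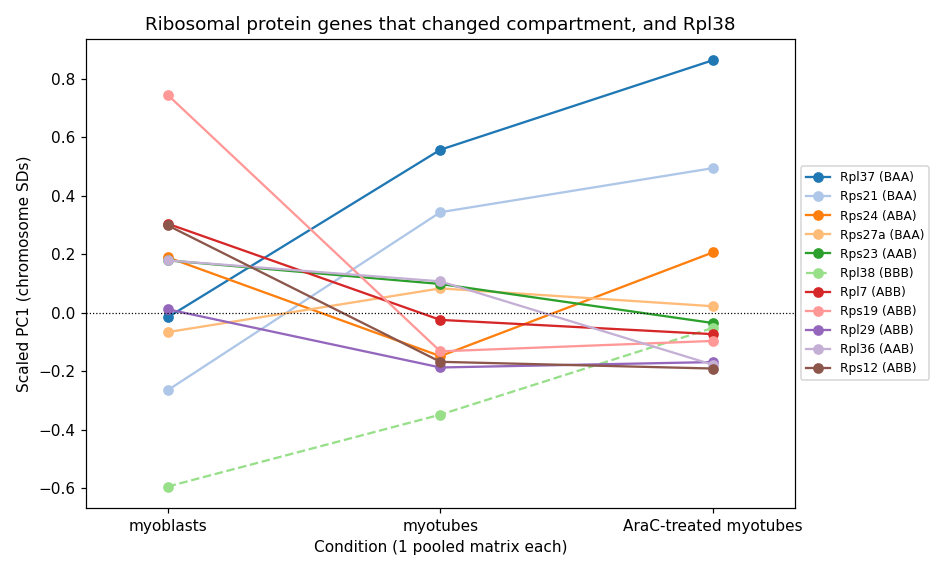
Scaled PC1 (vertical axis, in standard deviations of the chromosome) in the 3 conditions for the 10 ribosomal protein genes that had both signs and, dashed, for Rpl38, with the compartments of the 3 conditions in brackets. Rps19 starts highest at 0.745 and ends at -0.0960, while Rpl37 and Rps21 start below 0 and end at 0.864 and 0.495.

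Larger differences in scaled PC1 were not limited to the genes that crossed 0. Rpl34 (chr3:130726831-130730398), a large subunit gene in a bin of 3 TSSs, had scaled PC1 of 0.362, 0.991 and 1.28, which was the largest difference upward between myoblasts and AraC-treated myotubes (0.917). Rps26 and Rpl41, which share a bin, had 0.977, 1.68 and 1.25, the largest upward difference between myoblasts and myotubes (0.702). Rps25 had 1.94, 1.46 and 1.09, a difference of -0.845 between myoblasts and AraC-treated myotubes. Between the myotubes and AraC-treated myotubes the largest differences were smaller, at 0.355 for Rps24, 0.306 for Rpl37 and 0.297 for Rpl38, and at -0.446 for Rps29 and Rpl36al, -0.426 for Rps26 and Rpl41 and -0.372 for Rps25.

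Myotubes had the higher scaled PC1, relative to myoblasts, for 32 of 77 members (41.6%), beside 48.8% of all genes. It was higher in AraC-treated myotubes than in myoblasts for 25 (32.5%), beside 42.6%, and higher in AraC-treated myotubes than in myotubes for 28 (36.4%), beside 41.7%. This split depended on the scaling. Without division by the standard deviation myotubes exceeded myoblasts in PC1 for 58 members (75.3%, beside 57.6% of all genes), AraC-treated myotubes exceeded myoblasts for 55 (71.4%, beside 55.6%) and AraC-treated myotubes exceeded myotubes for 19 (24.7%, beside 41.2%). With PC1 taken from columns that were not centred, the count of 28 became 40 of 77. The median absolute difference in scaled PC1 was 0.187, 0.239 and 0.0880 in members and 0.158, 0.20 and 0.113 in all genes. Of the 36 members above 1.5 in myoblasts, 27 were lower in myotubes and 31 lower in AraC-treated myotubes. Of all genes above 1.5 in myoblasts, 67.6% and 76.4% were lower. These genes were picked for high values in myoblasts, which by itself favours lower values elsewhere, so no direction is read from these counts.

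The profile of a bin over its own chromosome was also compared between conditions by Pearson correlation. The median r of the members was 0.917 for myoblasts against myotubes, 0.868 for myoblasts against AraC-treated myotubes and 0.963 for both kinds of myotubes against each other, beside 0.90, 0.864 and 0.958 for all genes. The correlation is across bins, which are not independent replicates. Rpl19 (0.980, 0.966 and 0.992) and Rpl27 (0.980, 0.965 and 0.993), large subunit genes 3.42 Mb apart on chromosome 11, were among the members with the most constant profiles. Rpl23 (0.979, 0.962 and 0.992) and Rpl23a (0.976, 0.961 and 0.993), on the same chromosome, were close to them. On chromosome 11 PC1 took up more of the variance than on any other autosome, at 69.2%, 90.3% and 86.7%. The medians over autosomes were 39.4%, 71.3% and 63.4%, and r of other bins of chromosome 11 was not compared.

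A negative r was found for 3 members when myoblasts were set against myotubes (3.90%, beside 3.25% of all genes), for 4 with myoblasts against AraC-treated myotubes (5.19%, beside 4.78%) and for 1 with myotubes against AraC-treated myotubes (1.30%, beside 0.648%). These shares rest on few genes and were near the background. Rps19 had r of -0.338 for myoblasts against myotubes, -0.252 for myoblasts against AraC-treated myotubes and 0.820 between both kinds of myotubes. Rps12 had -0.220, -0.315 and 0.857, and Rps23 had -0.0519, -0.163 and 0.427. For Rps19 and Rps12 the profile of myoblasts was thus the one that stood apart.

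Rpl38 (chr11:114668524-114672331), a large subunit protein studied for its part in the translation of Hox messenger RNAs, showed another order. Its r was 0.746 for myoblasts against myotubes, -0.431 for myoblasts against AraC-treated myotubes and -0.476 between both kinds of myotubes. Its scaled PC1 was -0.594, -0.348 and -0.0513, so it was counted in B in all conditions but was at the boundary in AraC-treated myotubes. Its mean coefficient with the A bins of chromosome 11 was -0.0362, -0.000800 and 0.0677, and with the B bins 0.0179, 0.0470 and 0.00721. On other chromosomes the A mean minus the B mean was -0.0314, -0.00936 and 0.0498. By these means, the bin of Rpl38 was on the A side in AraC-treated myotubes. By PC1 it was not: PC1 was above 0 there in only 1 of 5 ways of computing it. The component taken from other autosomes was -0.0621, also below 0. The side of this bin in AraC-treated myotubes thus depended on the measure. The lowest other values between both kinds of myotubes were 0.381 for Rpl31 and 0.427 for Rps23.

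The 10 members that share a bin cannot be resolved at 500 kb. The bin of Rpl13a on chromosome 7 had scaled PC1 of 2.49, 2.39 and 2.06, and Rpl18 lay in the next bin with 2.34, 2.16 and 2.10. The TSSs of Rps28 and Rps18 lay 131 kb apart on chromosome 17 (1.70, 1.42 and 1.54), Rpl41 and Rps26 77.4 kb apart on chromosome 10, and Rps29 and Rpl36al 24.9 kb apart on chromosome 12. Further neighbours were Rpsa and Rpl14 on chromosome 9, Rpl23 and Rpl19 on chromosome 11, and Rps10 and Rpl10a on chromosome 17, in adjacent bins. Chromosome 7 held 14 members, of which 10 were always in A, and chromosome 19 held none.

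Gene density moved with these results, since PC1 was oriented by TSSs and dense bins are mostly in A. The median member lay in a bin with 11 protein-coding TSSs, and the median gene in a bin with 9. In bins with 20 or more TSSs, all 20 members were in A in myoblasts, 19 in myotubes and 18 in the AraC-treated myotubes, beside 75.9%, 73.4% and 70.6% of all genes in such bins. In bins with 10 to 19 TSSs the shares of the 25 members were 84.0%, 80.0% and 80.0%, beside 66.1%, 65.0% and 65.4%. In bins with 5 to 9 TSSs the shares of the 23 members were 60.9%, 65.2% and 69.6%, beside 61.1%, 58.1% and 57.1%, and the exact interval of the members in myoblasts ran from 38.5 to 80.3. Of the 9 members in bins with 1 to 4 TSSs, 7, 6 and 5 were in A (77.8%, 66.7% and 55.6%), beside 37.0%, 36.1% and 34.4%. These 9 were Rplp1, Rpl14, Rpl34, Rpl31 and Rpl17, always in A, Rpl7 and Rps23, which changed, and Rpl10l and Rpl15, always in B. The part of gene density in the result was not tested further.

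**Figure D3:**
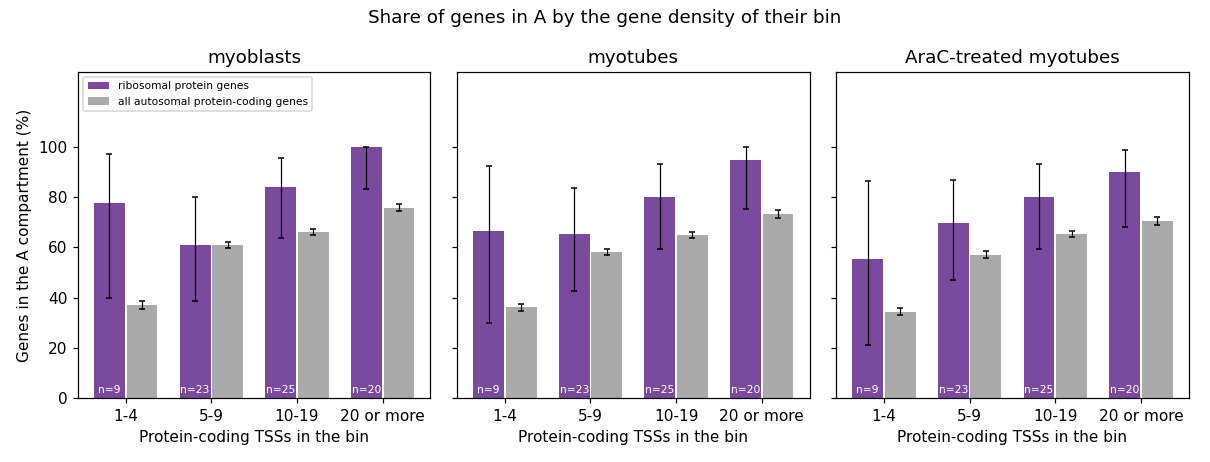
Share of genes in the A compartment (vertical axis, percent) by the number of protein-coding TSSs in the 500 kb bin for the ribosomal protein genes (purple, n given in the bar) and all autosomal protein-coding genes (grey) in each condition, with exact 95% intervals that cover counting error only. The purple bars are the higher ones in all classes except bins with 5 to 9 TSSs in myoblasts, where they stand at 60.9% and 61.1%.

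Around the members, scaled PC1 was highest near the gene and lower on both sides. In myotubes the median over members was 1.42 in the gene's own bin, 0.726 in the bin before and 1.42 in the bin after, in the order of chromosome coordinates, and -0.374 at 3 Mb before and 0.480 at 3 Mb after. The medians over all genes were 0.375, 0.269, 0.244, -0.309 and -0.202. In myoblasts the bin after the members had a higher median (1.41) than their own bin (0.977). The members' own bins exceeded the mean of the bins on either side in 58 of 77 cases in myoblasts (75.3%, beside 59.7% of all genes), in 55 in myotubes (71.4%, beside 60.2%) and in 59 in AraC-treated myotubes (76.6%, beside 59.5%).

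**Figure D4:**
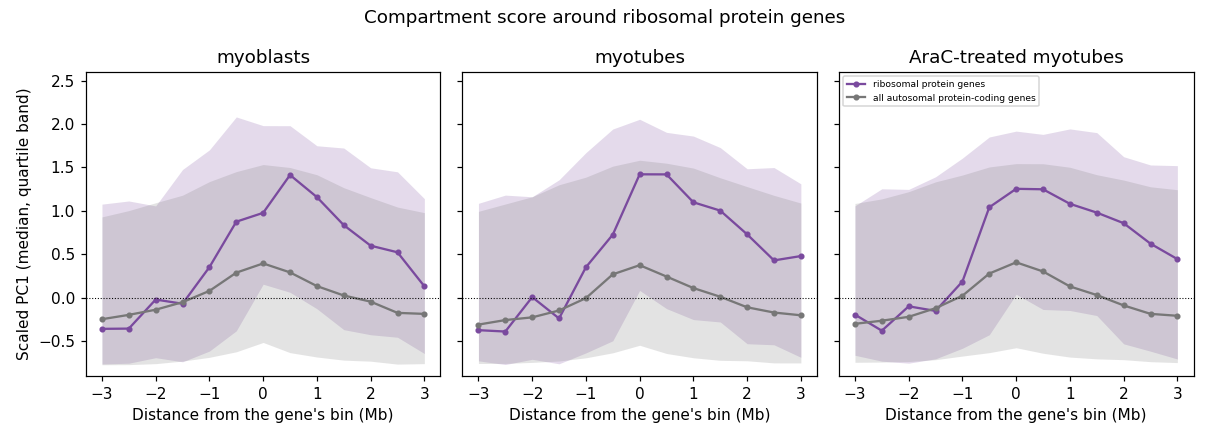
Median scaled PC1 (lines) with quartiles (bands) of the bins up to 3 Mb before and after the bins of the ribosomal protein genes (purple) and of all autosomal protein-coding genes (grey), in chromosome coordinates. The purple line exceeds the grey line from 1 Mb before to 3 Mb after the gene in each condition and reaches 1.42 at the gene in myotubes, where the grey line is at 0.375.

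Other gene sets were read in the same way. Of the genes for proteins of the mitochondrial ribosome, 55, 54 and 53 of 78 were in A in myoblasts, myotubes and the AraC-treated cells (70.5%, 69.2% and 67.9%). The nuclear genes of oxidative phosphorylation had 65, 64 and 63 of 91 in A (71.4%, 70.3% and 69.2%). The initiation and elongation factors of translation had 47, 47 and 44 of 64 (73.4%, 73.4% and 68.8%), and the factors of ribosome biogenesis 42, 38 and 40 of 62 (67.7%, 61.3% and 64.5%). The genes of RNA polymerase I, which transcribes ribosomal RNA, had 11 of 14 in A in each condition (78.6%). The shares of the cytosolic ribosomal protein genes (80.5%, 77.9% and 76.6%) were above that of RNA polymerase I genes in myoblasts and below it in both kinds of myotubes. Their exact intervals contained the shares of all these sets except that of the biogenesis factors, in each condition, and no difference between sets was tested. Outside the symbol rule, 4 of 6 further genes of ribosomal proteins or their relatives were in A in all conditions, among them Fau (2.45, 2.22 and 2.25), whose protein is made as a fusion with a ubiquitin-like protein. Rack1, a scaffold on the small subunit, was in B at -0.932, -0.974 and -1.06. Of the annotated ribosomal protein pseudogenes, which are mostly processed copies inserted elsewhere, 133 of 260 were in A in myoblasts (51.2%). The counts were 128 in myotubes (49.2%) and 127 in the AraC-treated myotubes (48.8%). Their share was thus below that of the members and below that of protein-coding genes. The median pseudogene lay in a bin with 5 protein-coding TSSs, beside 11 for members and 9 for all genes. The part of gene density in this lower share was not tested.

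The coefficients between members on different chromosomes were examined next. These pairs were not used for PC1, but they come from the same matrices. A high coefficient means that 2 bins have like contacts over the genome and does not show that they touch. Over 2378 pairs of member bins the mean coefficient was 0.0592 in myoblasts, 0.0848 in myotubes and 0.0636 in the AraC-treated myotubes. Over all pairs of bins with a TSS it was 0.00735, 0.00671 and 0.00294, and over pairs of A bins with a TSS 0.0545, 0.0969 and 0.0886. Member pairs thus had means above all TSS bins in each condition, and near those of A bins in myoblasts and below them in both kinds of myotubes. The spread of the coefficients differed between conditions. Divided by the SD of all coefficients between chromosomes of the same condition, the members' means were 1.33, 0.952 and 0.869, so that myoblasts were highest on this scale and myotubes on the scale of the coefficient. Means below are on the scale of the coefficient. The members' medians were lower, at 0.0228, 0.0220 and 0.0193, as the distribution had a long upper tail.

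The high values lay among members in A. For pairs of these the mean was 0.105 in myoblasts, 0.178 in myotubes and 0.141 in the AraC-treated myotubes, beside 0.0802, 0.144 and 0.122 for A bins with at least 5 TSSs. Members in A and members in B had negative means with each other (-0.0208, -0.0577 and -0.0439), and members in B had small positive means among themselves (0.015, 0.0350 and 0.0187). By the mean of the 3 conditions, the highest pair was Rpl12 with Rpl10a, on chromosomes 2 and 17, with 0.434, 0.638 and 0.541. Rpl12 with Rpl8 had 0.446, 0.630 and 0.521, and Rpl11 with Rpl10a had 0.398, 0.623 and 0.540. The lowest by this mean was Rpl12 with Rpl21, with -0.156, -0.202 and -0.150, followed by Rpl10a with Rpl21 (-0.135, -0.197 and -0.152) and Rps15 with Rpl21 (-0.141, -0.195 and -0.131). The highest pairs joined genes deep in A, and the 3 lowest all joined such a gene with Rpl21, in B. The compartments were called from the same matrices, so this order is no separate result.

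**Figure D5:**
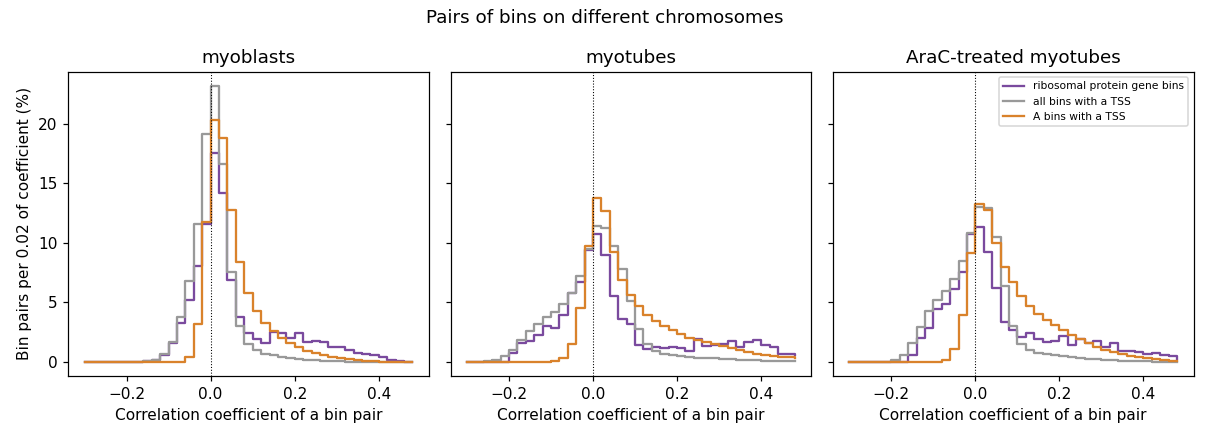
Distribution of the correlation coefficient (horizontal axis) over pairs of bins on different chromosomes, as the percentage of pairs per class of 0.02 (vertical axis), for bins of ribosomal protein genes (purple, 2378 pairs), all bins with a TSS (grey) and A bins with a TSS (orange). The purple line has a peak near 0 like the grey one and a shoulder above 0.2, which is farther to the right in myotubes than in myoblasts.

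By subunit, pairs within the large subunit had means of 0.0715, 0.110 and 0.0832, pairs within the small subunit 0.0442, 0.0575 and 0.0375, and pairs between subunits 0.0562, 0.0787 and 0.0581. The pairs between subunits lay between the other 2 classes in each condition. Member bins had means of 0.0544, 0.0785 and 0.0609 with the bins of translation factors, 0.0571, 0.0829 and 0.0675 with those of RNA polymerase I genes, 0.0498, 0.0731 and 0.0550 with those of mitochondrial ribosomal protein genes and 0.0355, 0.0485 and 0.0389 with those of biogenesis factors. The members' means among themselves were close to those with RNA polymerase I genes and translation factors. On the same chromosome, 149 pairs of member bins over 10 Mb apart had means of 0.0510, 0.0710 and 0.0600, beside 0.0121, 0.0127 and 0.00835 for all bins with a TSS. Such pairs of A bins with a TSS had means above those of the members, at 0.0582, 0.105 and 0.0968.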

How the data were processed

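Hi-C was performed on C2C12 myoblasts, myotubes and AraC-treated myotubes, with 2 biological replicates each. According to the methods, reads were mapped with Bowtie and filtered in HiCUP, and the di-tags of replicates were pooled and normalized in HOMER. The submitters' processing notes name the builds mm10 and GRCh38, and the bins fit mm10. The authors deposited 1 matrix per condition of scores, which are coefficients of correlation between the normalized profiles of 500 kb bins. They were used unchanged. The number of reads behind a coefficient is unknown from the matrices, and columns of unmapped samples numbered 0.

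PC1 was computed per chromosome and condition from the centred within-chromosome block, and was oriented to correlate with the protein-coding TSSs (GENCODE vM21) per bin. The sign was checked on other chromosomes: the difference between a bin's mean coefficients with their A and B bins correlated with scaled PC1 at r of at least 0.983 on each chromosome. A bin without data (zero on the diagonal) was left out, and 4727 of 4930 autosomal bins had data in all conditions. The profile correlation was Pearson r over the other bins of the chromosome. Promoters came from RefSeq (GRCm38.p6).

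With 1 matrix per condition, no SD, p-value or test was possible. Intervals are exact (Clopper-Pearson, 95%). Members, gene sets and comparisons were chosen with earlier results of these data known. Genes named are those in B in any condition, those that changed compartment or had negative r, the 3 most extreme in each measure, those sharing bins, the l variants, and a short list of genes with known roles. Alternatives covered the symbol rule, the placing of genes, the computation of PC1, the threshold and kind of correlation, and the choice of pairs. Python 3.11.15, NumPy 2.4.6, SciPy 1.17.1, pandas 2.3.3 and Matplotlib 3.10.9 were used, and the steps were tested on simulated matrices. Some genes counted among the members and gene sets are not reported individually here.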

Additional observations from a re-analysis of the deposited data

How the results depend on the processing

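No paired analysis was possible because the replicates were pooled into 1 matrix per condition before deposit, and for the same reason no replicate could be left out. Of 175 alternative values, 152 stayed near the main value (counts and mean coefficients within 1.5 times, median percentiles within 10 points), 20 moved further and 3 turned the direction. Members in A numbered 48 to 62 in myoblasts, 49 to 60 in myotubes and 50 to 59 in AraC-treated myotubes over all alternatives. The counts of compartment changes were 3, 4 and 1 (myoblasts to myotubes, myoblasts to AraC-treated myotubes, myotubes to AraC-treated myotubes) in the bin before the gene's, 4 for myoblasts to AraC-treated myotubes in the bin after, and 0, 0 and 0 among bins with absolute PC1 above the 20th percentile, where by construction the bins near 0 are left out. In the bin before, negative r was found for 0 members with myoblasts against myotubes and for 2 with myoblasts against AraC-treated myotubes. In the latter comparison 2 were found in the bin after, and 8 in the gene's own bin with the threshold at 0.2. The 3 turns were all in the count of members with higher PC1, between a minority and a majority of 77. PC1 not divided by its SD was higher in 58 members for myoblasts to myotubes and 55 for myoblasts to AraC-treated myotubes, and with columns not centred it was higher in 40 for myotubes to AraC-treated myotubes. The mean coefficient over member pairs was 0.0385, 0.0492 and 0.0383 in the bin before, and the median over pairs was 0.0228, 0.0220 and 0.0193 in place of the mean. With member bins in A only, an alternative chosen after seeing the data, the mean was 0.105, 0.178 and 0.141. The cause of these differences was not tested, apart from those that follow from the alternative itself. Division of pair coefficients by their SD gives another unit, in which the order of the conditions turns, at 1.33, 0.952 and 0.869. A pyrimidine run at any listed start, also chosen after seeing the data, was found in 27 of 57 members. At 500 kb, a bin holds many genes besides the member, and the depth behind each coefficient is unknown.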
